A study of Mus musculus with 20 samples.

Results

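Cdh5, Esam, Pecam1, Icam1 and Vcam1 are genes of endothelial junctions and of the adhesion of leukocytes to endothelium. They were taken by symbol from a table of 6025 genes measured in the mouse kidney cortex after 3 kinds of acute kidney injury, and 5 of 5 were in it. The mice were wild type (WT) C57BL/6 animals aged 8 weeks, and each library came from 1 mouse. Controls (n = 8) were set beside mice at 24 h of ischemia-reperfusion injury (IRI, n = 4), at 24 h of rhabdomyolysis (n = 4) and at 72 h after cisplatin (n = 4). IRI stops and then restores the renal blood supply, rhabdomyolysis floods the blood with the contents of damaged muscle, and cisplatin is a DNA-damaging drug toxic to the tubule. All control libraries were labelled mock, whereas the series text names mock and vehicle animals together, so these kinds of control were not separated. The length of ischemia, the cisplatin dose and the way rhabdomyolysis was produced were not given in the sources used here.

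The endothelium of a vessel is sealed by junctions in which membrane proteins of neighbouring cells bind each other. VE-cadherin, the product of Cdh5, forms the adherens junction, and the immunoglobulin-domain proteins ESAM and PECAM1 lie at the same contacts. ICAM1 and VCAM1 are immunoglobulin-domain receptors of another kind: they are raised on activated endothelium by inflammatory cytokines acting through the transcription factor NF-kappaB, and they hold rolling leukocytes through beta-2 and alpha-4 integrins. Neither is restricted to endothelium, since injured renal tubule cells, macrophages and fibroblasts can carry them.

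The Icam1 promoter is shown because Icam1 was the 1 gene of the 5 matched in the promoter table used here, and because cytokine induction of this gene through its proximal promoter is textbook knowledge. The sequence is the 250 bases before the RefSeq start of the gene on the plus strand of GRCm38.p6, chr9:21015690-21015939. Capitals mark 2 matches: the NF-kappaB site form GGAAATTCC at 21015787 to 21015795, and TTCCCGGAA, a match to the STAT-binding GAS form TTCNNNGAA, at 21015898 to 21015906.
Icam1 promoter: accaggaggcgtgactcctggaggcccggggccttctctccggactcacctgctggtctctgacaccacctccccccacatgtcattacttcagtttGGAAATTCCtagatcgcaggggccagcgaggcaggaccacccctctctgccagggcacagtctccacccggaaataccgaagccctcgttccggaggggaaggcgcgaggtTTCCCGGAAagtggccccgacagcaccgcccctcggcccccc
Both strands were searched, and the 2 matches do not overlap. Among 32851 mouse promoter windows of this length in the same table, GGAAATTCC was present in 94 (0.286%) and TTCNNNGAA in 2306 (7.02%). TATAAA, present in 4063 windows (12.4%), was not in this window. These matches describe letters and were not tested as binding sites.

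In the GENCODE M21 annotation of GRCm38, all 5 are protein-coding genes. Cdh5 lies on chromosome 8 at 104101625 to 104144511 (plus strand). Esam lies on chromosome 9 at 37528078 to 37538319 (plus strand), as does Icam1 at 21015985 to 21028817 (plus strand). Pecam1 lies on chromosome 11 at 106654217 to 106750628 and Vcam1 on chromosome 3 at 116109949 to 116129688, both on the minus strand. Cdh5, Icam1 and Vcam1 each overlap an annotated antisense gene (Gm29682, Gm47079 and Gm43109). The library kit keeps strand, but the strand setting of the authors' counting was not given in the sources used here, so reads of the overlapping parts are uncertain.

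The values were CPM, reads scaled to a common library size whose definition was not given in the sources used here. The table held 3.48 to 5.40 M (mega) reads per library, which was 42.1 to 70.6% of that size, and the 5 genes had between 36 reads (Vcam1) and 2156 reads (Pecam1) in a library. Every gene of the table was 1.5-fold or further from the control mean in 1 or more of the injuries, so all counts below are from a set selected for change, and are to be read beside the share of all tested genes that passed. Library identifiers fall into 2 ranges: controls 1 to 4 share one with the IRI mice, and controls 5 to 8 share the other with the rhabdomyolysis and cisplatin mice. Each injury was therefore compared with its 4 matched controls, in a limma model of log2(CPM + 1) over all 20 libraries and 5672 genes, at a Benjamini-Hochberg adjusted p of 0.05. Direct differences between IRI libraries and the other injured libraries cannot be told apart from the range, so IRI was set against them through the difference between effects. Between the control sets limma called 0% of the 5672 genes, with 454 at an unadjusted p under 0.05. edgeR on recovered reads also called 0, with 420 at an unadjusted p under 0.05, and DESeq2 called 2.

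Per kilobase of annotated exon, Pecam1 was the highest of the 5 genes in the controls, at 15.7 CPM per kb ± 3.04 (SD, n = 8). Cdh5 followed at 7.98 CPM per kb ± 2.60, Icam1 at 6.78 ± 0.944 and Esam at 6.56 ± 0.847 (SD, n = 8 each), and the last 2 lay within 1 SD of the Cdh5 level. Vcam1 was lowest at 1.49 CPM per kb ± 0.359 (SD, n = 8). These lengths are the union of annotated exons and not the lengths used in the authors' processing.

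All 5 genes were higher than in matched controls after rhabdomyolysis and after cisplatin, and Pecam1, Icam1 and Vcam1 were higher after IRI. The sizes fell into 2 patterns. Icam1 and Vcam1 were highest after cisplatin, 7.10-fold and 6.73-fold above matched controls as ratios of mean CPM, and rose in all 3 injuries. Cdh5, Esam and Pecam1 rose 2.19- to 2.68-fold after rhabdomyolysis and 1.60- to 2.19-fold after cisplatin, while after IRI their ratios were 1.21, 0.962 and 1.32, and only Pecam1 passed. Members called higher numbered 3 of 5 for IRI and 5 of 5 for each of rhabdomyolysis and cisplatin. Among all tested genes, 40.6%, 48.8% and 47.8% were called higher in the same comparisons. The Pecam1 call in IRI and the Cdh5 call in cisplatin did not hold with some single libraries left out. Over the alternative settings the members called ranged from 2 to 4 in IRI and from 3 to 5 in cisplatin.

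**Figure D1:**
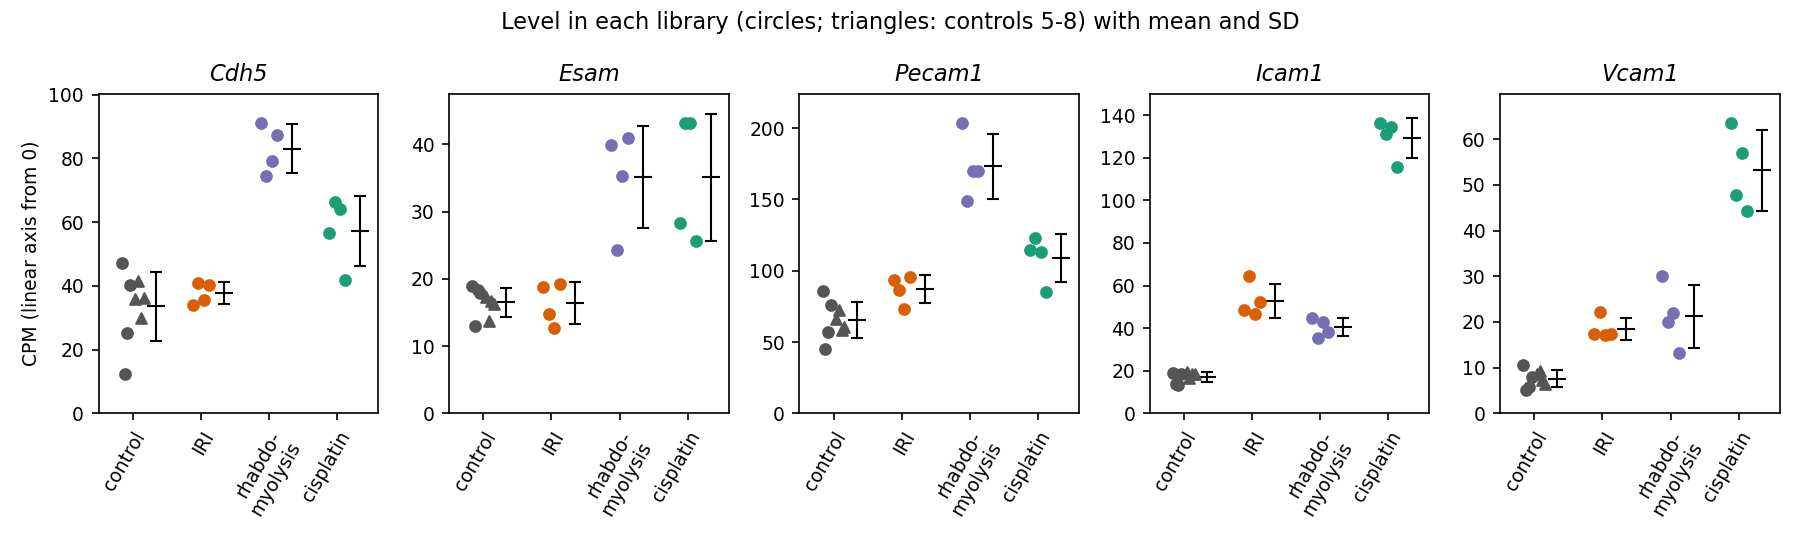
CPM of each gene in each of the 20 libraries by group, on a linear axis from 0 that differs between panels. Points are libraries (triangles are controls 5 to 8) and bars give the mean and SD. Icam1 and Vcam1 of the 4 cisplatin libraries lie above every other library, while the highest Cdh5 and Pecam1 values are those of the rhabdomyolysis libraries.

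Cdh5 encodes VE-cadherin, the transmembrane cadherin of the endothelial adherens junction. In the 8 controls its lowest, median and highest values were 12.4, 36.0 and 47.1 CPM. After IRI the 4 libraries held 34.1, 40.8, 35.5 and 40.4 CPM, all within the range of the controls. After rhabdomyolysis they held 91.2, 74.5, 79.1 and 87.4 CPM. Each of these 4 lay above all 8 controls and above every IRI and cisplatin library. After cisplatin the values were 56.7, 66.3, 64.0 and 41.7 CPM, 3 of them above all 8 controls and all 4 above the matched controls. The group means were 33.5 CPM ± 10.9 (SD, n = 8) in the controls, 37.7 ± 3.39 in IRI, 57.2 ± 11.1 in cisplatin and 83.1 ± 7.63 in rhabdomyolysis (SD, n = 4 each).

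On the log2(CPM + 1) scale Cdh5 was higher by 1.20 in rhabdomyolysis (SE 0.25, limma adjusted p = 0.000130) and by 0.65 in cisplatin (SE 0.25, limma adjusted p = 0.0198). In IRI the difference was 0.42 (95% interval -0.11 to 0.94, limma adjusted p = 0.131) and did not pass. That value depended on single controls: it was 0.05 without control 2, where Cdh5 had 88 reads, and it passed without control 1 (0.66, limma adjusted p = 0.0167) or control 4 (0.59, limma adjusted p = 0.0440). The cisplatin difference lost its call without control 7 (0.57, limma adjusted p = 0.0584), cisplatin library 2 (0.57, limma adjusted p = 0.0557) or cisplatin library 3 (0.59, limma adjusted p = 0.0512).

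Esam encodes an adhesion molecule of endothelial tight junctions that platelets also carry. Its values in the 8 controls ran from 12.9 through a median of 17.0 to 19.0 CPM. The 4 IRI libraries held 18.8, 14.8, 12.7 and 19.2 CPM, with 1 library just below the lowest control and 1 just above the highest. Rhabdomyolysis gave 39.9, 24.3, 35.3 and 40.9 CPM. Cisplatin gave 28.4, 43.2, 43.2 and 25.6 CPM. All 8 of these libraries lay above all controls, and the rhabdomyolysis and cisplatin ranges overlapped almost wholly, with group means of 35.1 CPM ± 7.58 and 35.1 ± 9.45 (SD, n = 4 each). Esam rose by 1.06 on the log2(CPM + 1) scale in rhabdomyolysis (SE 0.19, limma adjusted p = 1.65e-05) and by 1.05 in cisplatin (SE 0.19, limma adjusted p = 2.42e-05). In IRI its difference was -0.06 (95% interval -0.45 to 0.33, limma adjusted p = 0.784). That interval leaves out a rise of the size seen in the other injuries, and the sign of the value turned with the scaling (0.10 with 75th percentile scaling).

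Pecam1 encodes CD31, an adhesion receptor of endothelial contacts that platelets and many leukocytes also carry. The lowest, median and highest control values were 45.2, 63.5 and 85.6 CPM. In IRI the 4 libraries held 93.2, 86.6, 73.1 and 95.4 CPM, 3 of them above all controls. In rhabdomyolysis they held 204, 149, 170 and 170 CPM, above every library of the other groups. Cisplatin values were 115, 123, 113 and 84.7 CPM, and the lowest of them fell just below the highest control. The means were 65.2 CPM ± 12.6 in the controls (SD, n = 8), 87.1 ± 10.0 in IRI, 109 ± 16.6 in cisplatin and 173 ± 22.8 in rhabdomyolysis (SD, n = 4 each). Pecam1 was higher by 0.43 on the log2(CPM + 1) scale in IRI (SE 0.16, limma adjusted p = 0.0190), by 1.41 in rhabdomyolysis (SE 0.16, limma adjusted p = 3.40e-08) and by 0.74 in cisplatin (SE 0.16, limma adjusted p = 0.000228). The IRI call ended without control 2 (0.26, limma adjusted p = 0.110), control 3 (0.38, limma adjusted p = 0.0573) or IRI library 4 (0.38, limma adjusted p = 0.0525).

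Icam1 encodes the ligand of the leukocyte integrins LFA-1 and Mac-1. The 8 controls were close together, with a lowest value of 13.4, a median of 18.4 and a highest of 19.4 CPM. The 4 IRI libraries held 48.5, 64.3, 46.6 and 52.2 CPM. The 4 rhabdomyolysis libraries held 44.9, 35.6, 42.9 and 38.4 CPM. All 8 lay above all controls, and the highest rhabdomyolysis value was below the lowest IRI value. The cisplatin libraries held 136, 131, 135 and 116 CPM, each above every library of the other groups. The means were 17.2 CPM ± 2.39 in the controls (SD, n = 8), 52.9 ± 7.96 in IRI, 129 ± 9.36 in cisplatin and 40.4 ± 4.24 in rhabdomyolysis (SD, n = 4 each). Icam1 rose by 1.66 on the log2(CPM + 1) scale in IRI (SE 0.13, limma adjusted p = 2.40e-10), by 1.10 in rhabdomyolysis (SE 0.13, limma adjusted p = 3.97e-08) and by 2.76 in cisplatin (SE 0.13, limma adjusted p = 2.15e-14).

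Vcam1 encodes the ligand of the alpha-4 integrin VLA-4 of lymphocytes and monocytes. It was low in the controls, with values from 5.07 through a median of 7.63 to 10.5 CPM, that is 36 to 78 reads. IRI gave 17.4, 22.1, 17.1 and 17.4 CPM. Rhabdomyolysis gave 30.0, 19.9, 21.9 and 13.3 CPM, the widest spread of the 4 groups in proportion to the mean (32.3%). The cisplatin libraries held 63.6, 47.8, 56.9 and 44.3 CPM. All 12 injured libraries lay above all controls, the IRI and rhabdomyolysis ranges overlapped, and the cisplatin libraries lay above both. The means were 7.61 CPM ± 1.83 in the controls (SD, n = 8), 18.5 ± 2.40 in IRI, 53.1 ± 8.77 in cisplatin and 21.3 ± 6.87 in rhabdomyolysis (SD, n = 4 each). Vcam1 rose by 1.27 on the log2(CPM + 1) scale in IRI (SE 0.21, limma adjusted p = 1.29e-05), by 1.28 in rhabdomyolysis (SE 0.21, limma adjusted p = 5.18e-06) and by 2.60 in cisplatin (SE 0.21, limma adjusted p = 1.83e-10).

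**Figure D2:**
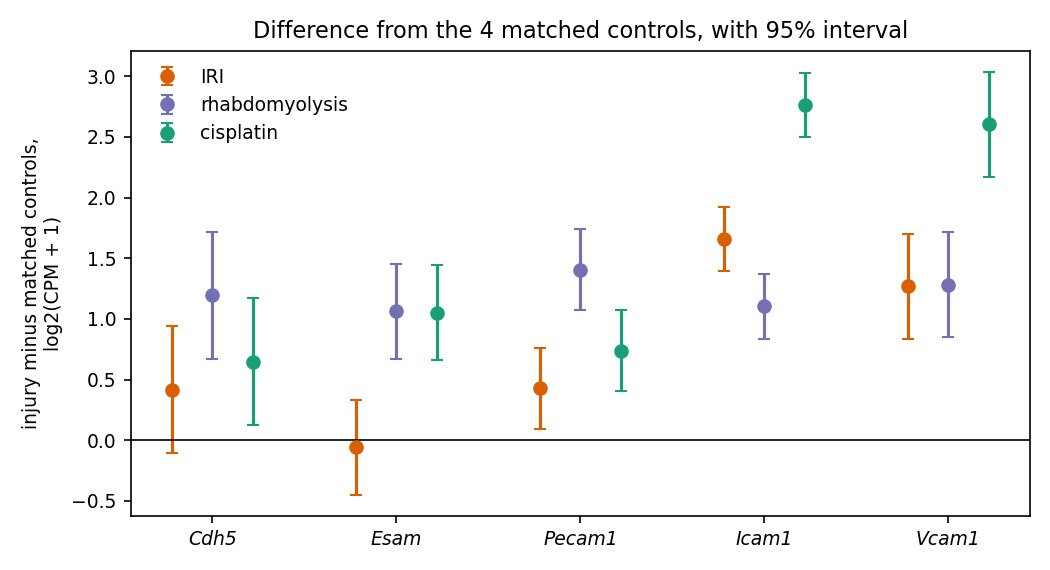
Difference of each injury from its 4 matched controls on the log2(CPM + 1) scale, with the 95% interval from limma. Cisplatin gives the largest values for Icam1 (2.76) and Vcam1 (2.60), rhabdomyolysis the largest for Pecam1 (1.41), and the IRI intervals of Cdh5 and Esam include 0.

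Permuting the labels of 4 injured and 4 matched control libraries (exact, two-sided) on the same log values gave p = 0.0286 for 12 of the 15 gene and injury pairs (0.0357 after adjustment over the 15 tests). This is the smallest p that the 70 arrangements allow. The remaining pairs were all in IRI: Cdh5 (exact permutation p = 0.371), Esam (exact permutation p = 0.886) and Pecam1 (exact permutation p = 0.114). Counted without a model, the genes whose 4 injured libraries lay above all 8 controls numbered 2 of 5 for IRI, 3 of 5 for cisplatin and 5 of 5 for rhabdomyolysis. The shares of all tested genes that did so were 31.0% for IRI, 40.7% for cisplatin and 42.3% for rhabdomyolysis.

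Rhabdomyolysis and cisplatin share a range and were compared directly. Rhabdomyolysis was sampled at 24 h and cisplatin at 72 h, so the kind of injury cannot be told apart from the time. Pecam1 was higher in rhabdomyolysis by 0.67 on the log2(CPM + 1) scale (SE 0.16, limma adjusted p = 0.00139), while Icam1 was lower there by 1.66 (log2 difference -1.66, SE 0.13, limma adjusted p = 5.63e-10) and Vcam1 lower by 1.32 (log2 difference -1.32, SE 0.21, limma adjusted p = 1.52e-05). Pecam1 and the 2 inducible receptors thus differed in opposite directions between these injuries. Cdh5 was 0.55 higher in rhabdomyolysis without passing (95% interval 0.02 to 1.07, limma adjusted p = 0.0712), and it passed under 4 other scalings or tools, among them DESeq2 (0.66, adjusted p = 0.0117). Esam differed by 0.01 (95% interval -0.38 to 0.40, limma adjusted p = 0.962). The 3 members called of 5 stand beside 54.1% of all tested genes called in either direction.

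The IRI effect was set against the other 2 effects, each measured from its own controls. Between IRI (24 h) and cisplatin (72 h), kind of injury and time again cannot be told apart. Against rhabdomyolysis, the IRI effect was smaller for Esam (difference of log2 effects -1.12, SE 0.27, limma adjusted p = 0.00151) and Pecam1 (-0.98, SE 0.23, limma adjusted p = 0.00130), and larger for Icam1 (0.56, SE 0.18, limma adjusted p = 0.0140). For Vcam1 these effects differed by -0.01 (95% interval -0.62 to 0.60, limma adjusted p = 0.970), an interval wide enough to hold a sizeable difference either way. Cdh5 differed by -0.78 (95% interval -1.52 to -0.04, limma adjusted p = 0.0713) and passed without control 2 (-1.15, limma adjusted p = 0.000594) and with edgeR on recovered reads (-0.95, adjusted p = 0.0268). Against cisplatin, the IRI effect was smaller for Esam (-1.11, SE 0.27, limma adjusted p = 0.00313), Icam1 (-1.10, SE 0.18, limma adjusted p = 8.77e-05) and Vcam1 (-1.34, SE 0.29, limma adjusted p = 0.00150). Pecam1 (-0.31, 95% interval -0.78 to 0.17) and Cdh5 (-0.23, 95% interval -0.97 to 0.51) did not pass. Each comparison called 3 of 5 members, beside 52.0% of all tested genes against rhabdomyolysis and 30.3% against cisplatin.

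A ratio of genes within a library does not depend on how the library was scaled. Icam1 over Pecam1 was 0.268 ± 0.0385 in the controls (SD, n = 8), with a range of 0.223 to 0.313. In rhabdomyolysis it was 0.234 ± 0.0142 (SD, n = 4), and the 4 libraries, at 0.220 to 0.252, overlapped the controls. Of the matched controls, with a mean of 0.285 ± 0.0376 (SD, n = 4), 3 lay above all 4 rhabdomyolysis libraries and control 6 (0.230) lay among them. In IRI it was 0.612 ± 0.101 and in cisplatin 1.20 ± 0.124 (SD, n = 4 each). Every IRI library (0.520 to 0.743) lay above all controls, and every cisplatin library (1.06 to 1.37) above all IRI libraries. Icam1 was thus raised more than Pecam1 in IRI and cisplatin, and not in rhabdomyolysis (2.22-fold for Icam1 and 2.68-fold for Pecam1). Vcam1 over Pecam1 was likewise highest in cisplatin and next in IRI, with 0.116 ± 0.0117 in the controls (SD, n = 8), 0.122 ± 0.0301 in rhabdomyolysis, 0.215 ± 0.0358 in IRI and 0.492 ± 0.0722 in cisplatin (SD, n = 4 each). The rhabdomyolysis libraries (0.0783 to 0.147) again overlapped the controls, and the IRI and cisplatin libraries did not.

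Ratios were also taken within each kind of gene. Cdh5 over Pecam1 was 0.502 ± 0.103 in the controls (SD, n = 8), 0.436 ± 0.0539 in IRI, 0.523 ± 0.0357 in cisplatin and 0.482 ± 0.0309 in rhabdomyolysis (SD, n = 4 each), and all injured libraries lay within the control range of 0.274 to 0.595. The lowest ratio of the 20 libraries was that of control 2. The next lowest control, control 3 (0.442), lay above IRI libraries 1 (0.366) and 4 (0.423) and below IRI libraries 2 and 3. Against matched controls (0.509 to 0.595), rhabdomyolysis libraries 1, 2 and 3 (0.448, 0.500 and 0.466) lay below all of them. So did cisplatin libraries 1 and 4 (0.495 and 0.493), while rhabdomyolysis library 4 and cisplatin libraries 2 and 3 lay within that range. Icam1 over Vcam1 was 2.33 ± 0.387 in the controls (SD, n = 8), 2.85 ± 0.124 in IRI, 2.47 ± 0.264 in cisplatin and 2.03 ± 0.601 in rhabdomyolysis (SD, n = 4 each). Every IRI library (2.72 to 3.00) lay above every matched control (1.82 to 2.69), while rhabdomyolysis and cisplatin overlapped their matched controls. Esam over Pecam1 was 0.259 ± 0.0415 in the controls (SD, n = 8), 0.187 ± 0.0167 in IRI, 0.321 ± 0.0590 in cisplatin and 0.202 ± 0.0320 in rhabdomyolysis (SD, n = 4 each). The mean of that ratio was below the control mean in IRI and rhabdomyolysis and above it in cisplatin. Every IRI library (0.171 to 0.201) lay below every matched control (0.222 to 0.321), while rhabdomyolysis and cisplatin overlapped their matched controls.

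**Figure D3:**
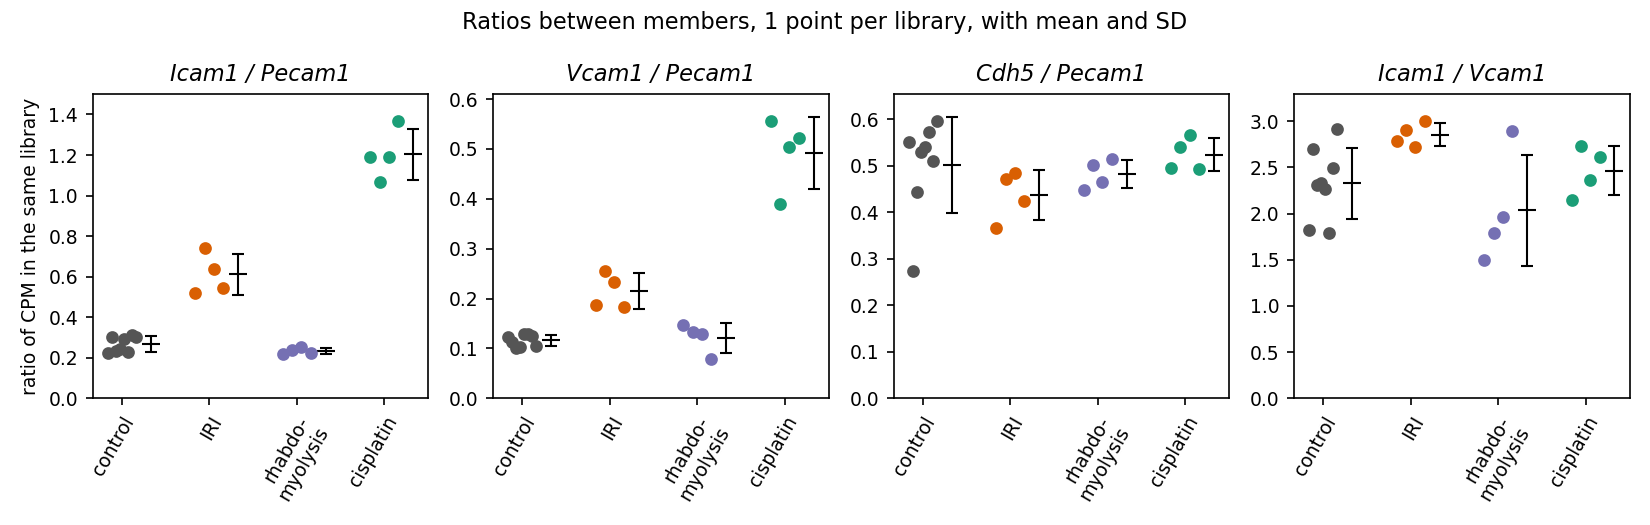
Ratio of the CPM values of 2 genes within each library, 1 point per library, with the mean and SD of each group. Icam1 over Pecam1 and Vcam1 over Pecam1 overlap the controls in rhabdomyolysis and exceed them in every IRI and cisplatin library, while Cdh5 over Pecam1 overlaps the controls in all 3 injuries and Icam1 over Vcam1 in IRI lies above controls 1 to 4 (1.82 to 2.69).

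Over the 20 libraries the log2(CPM + 1) levels of Icam1 and Vcam1 had a Pearson r of 0.968, and those of Cdh5 and Pecam1 an r of 0.934. Esam correlated with Pecam1 at 0.825 and with Cdh5 at 0.802. The lowest pair was Cdh5 with Icam1, at 0.521. These values describe libraries that share 4 groups and their scaling. For deviations from the group means (controls taken as 2 sets, n = 20) r was 0.891 for Cdh5 with Pecam1, 0.693 for Icam1 with Vcam1 and 0.107 for Esam with Vcam1. Deviations of genes in a library share its depth and its mix of tissue.

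The 3 genes most like each member were taken by the Pearson r of log2(CPM + 1) levels over the 20 libraries among 5667 other genes. Cdh5 was most like Notch4 (r = 0.965), a Notch receptor of endothelium, followed by Arhgap31 (0.941) and Kitl (0.939). Pecam1 was most like Man1c1 (0.979), Cd93 (0.978) and Eltd1 (0.976), the last 2 being receptors known from endothelium. Cd93 had a mean of 21.1 CPM in the controls, 42.1 in IRI, 114 in rhabdomyolysis and 50.9 in cisplatin. Esam was most like Prkch (0.938), S1pr1 (0.937), the sphingosine-1-phosphate receptor of endothelium, and Grasp (0.933). Prkch, like Esam, had nearly the same mean in controls and IRI (13.3 and 13.0 CPM) and in rhabdomyolysis and cisplatin (27.6 and 26.3 CPM).

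The nearest genes of the inducible receptors were of other kinds. Icam1 was most like Fat1 (0.975), Zmat3 (0.975), a p53 target, and Birc3 (0.972), an NF-kappaB target that restrains cell death. Their means in controls, IRI, rhabdomyolysis and cisplatin were 33.7, 84.1, 80.4 and 223 CPM for Fat1 and 9.01, 20.9, 23.1 and 48.4 CPM for Birc3. Vcam1 was most like Cp (0.976), which encodes ceruloplasmin, Cpne2 (0.966) and Eda2r (0.963), another p53 target. Cp had means of 29.0, 86.5, 99.9 and 304 CPM in the same order.
For deviations from the group means, the leading genes were Notch3 (0.925), Podxl (0.919) and Tlr3 (0.915) for Cdh5, and Esyt2 (0.919), Tlr3 (0.917) and Pde3a (0.906) for Pecam1. They were Mob3a (0.819), Sema7a (0.815) and Srgn (0.813) for Esam, Cp (0.824), Plekhh2 (0.816) and Usp42 (0.801) for Icam1, and Cx3cl1 (0.875), Des (0.859) and Pcdhgc3 (0.859) for Vcam1. Of these, Podxl marks podocytes as well as endothelium, and Cx3cl1 encodes fractalkine, a membrane-bound chemokine that also holds leukocytes to endothelium.

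A list of 36 other endothelial genes had 22 members analysed here, 2 of them under older symbols (Eltd1 and Gpr116). Of the 22, 20 were higher and 2 lower in rhabdomyolysis, and the same numbers held in cisplatin, with median log2 differences of 1.25 and 1.02. In IRI 12 were higher, 3 lower and 7 not called, with a median of 0.51. Over all tested genes the medians were 0.31, 0.30 and 0.08, and the shares called were 48.8% higher and 46.5% lower in rhabdomyolysis, 47.8% and 44.0% in cisplatin, and 40.6% and 40.1% in IRI. The IRI count of higher genes was 8 without control 2 and 16 with 75th percentile scaling. The genes lower in rhabdomyolysis and cisplatin were Esm1, an endothelial proteoglycan of angiogenic vessels, and Aplnr, the apelin receptor. In rhabdomyolysis 1 of these was called lower, not both, with 75th percentile scaling, quantile normalization, or edgeR and TMM. In IRI these 2 and Vwf, which encodes von Willebrand factor, were lower.

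Flt1, a VEGF receptor, had means of 44.9 CPM ± 15.4 in the controls (SD, n = 8), 70.7 ± 6.52 in IRI, 117 ± 14.9 in cisplatin and 150 ± 32.9 in rhabdomyolysis (SD, n = 4 each). Eng, a TGF-beta co-receptor, had means of 95.3, 134, 246 and 165 CPM in controls, IRI, rhabdomyolysis and cisplatin, and Plvap, of the diaphragms of fenestrated endothelium, 124, 173, 289 and 198 CPM in that order. Cd34 had means of 30.5, 40.2, 62.5 and 60.2 CPM and was not called in IRI. In the direct comparison, 8 of the 22 genes were higher in rhabdomyolysis than in cisplatin and 14 were not called, and the IRI effect was lower than the rhabdomyolysis effect for 12, with 10 not called. The shares of all tested genes called in these directions were 21.4% and 23.4%. The junction genes Cdh5 and Pecam1 and most of these genes had their highest mean in rhabdomyolysis. Of these, Cdh5 and many of the list were not called against cisplatin. The third junction gene, Esam, had a mean of 35.1 CPM in both injuries. Among defining endothelial markers, Cdh5, Pecam1 and Flt1 were present in every library, and Kdr, Tek and Emcn were not analysed here.

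Partners at the junction were represented by 8 of 19 listed genes. All 8 were higher in IRI and in rhabdomyolysis, and 7 of 8 in cisplatin, with median log2 differences of 0.81, 1.36 and 1.40, beside 40.6%, 48.8% and 47.8% of all tested genes called higher. The gene not called in cisplatin was Gja5, a gap junction protein of arterial endothelium, with 4.25 CPM ± 0.772 in cisplatin (SD, n = 4) beside 3.36 ± 0.965 in the controls (SD, n = 8). Jam2, an endothelial tight junction receptor, had means of 7.51 CPM in the controls, 37.0 in rhabdomyolysis and 36.5 in cisplatin, and was higher in IRI by 1.02 on the log2(CPM + 1) scale. F11r, its relative that epithelia also carry, had 124, 148, 192 and 233 CPM in controls, IRI, rhabdomyolysis and cisplatin. Tjp1, a scaffold protein of tight junctions in endothelium and epithelium alike, had 54.9, 76.4, 127 and 125 CPM in that order.

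A list of the selectins and of leukocyte partners of ICAM1, VCAM1 and the selectins, with cytoskeletal linkers, was represented by 13 of 16 listed genes, 12 of them tested. All 12 were higher in rhabdomyolysis and in cisplatin and 10 in IRI, where Sele (E-selectin) and Selplg (the P-selectin ligand) were not called. The all-gene shares called higher were 48.8%, 47.8% and 40.6%, and with quantile normalization the counts were 11 in rhabdomyolysis, 9 in cisplatin and 9 in IRI. The median log2 differences were 1.38 in rhabdomyolysis, 1.14 in cisplatin and 0.96 in IRI. Itgb2, the beta-2 chain of LFA-1 and Mac-1, had means of 3.76 CPM ± 1.32 in the controls (SD, n = 8), 6.71 ± 0.561 in IRI, 9.37 ± 3.52 in cisplatin and 9.71 ± 4.05 in rhabdomyolysis (SD, n = 4 each). Itgal, the LFA-1 alpha chain, had 1.98, 4.54, 4.96 and 4.71 CPM in controls, IRI, rhabdomyolysis and cisplatin, and Itgam, the Mac-1 alpha chain, 1.16, 7.40, 16.1 and 13.0 CPM in that order. Itgax, the alpha chain of a further beta-2 integrin, had 1.71, 3.98, 8.43 and 8.82 CPM. For these 4 integrin chains the rhabdomyolysis and cisplatin means lay within 1 SD of each other, unlike those of Icam1.

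Genes of the NF-kappaB response, the pathway named above for Icam1 and Vcam1, had 22 of 23 members analysed. All 22 were higher in cisplatin, 18 in IRI and 18 in rhabdomyolysis, and the other 4 were not called in each, with median log2 differences of 1.67, 0.88 and 1.54, beside 47.8%, 40.6% and 48.8% of all tested genes called higher. Directly compared, 10 were lower and 1 higher in rhabdomyolysis than in cisplatin, where 32.7% of all tested genes were lower and 21.4% higher. With other scalings or tools up to 4 were higher. The IRI effect was lower than the cisplatin effect for 14, with 8 not called (16.8% of all tested genes lower). Against the rhabdomyolysis effect it was lower for 8 and higher for 1 (23.4% and 28.6% of all tested genes), whereas for Icam1 it was higher. Nfkbia, which encodes the inhibitor of NF-kappaB, had means of 21.3 CPM ± 2.87 in the controls (SD, n = 8), 34.5 ± 6.82 in IRI, 93.5 ± 17.6 in cisplatin and 43.7 ± 7.41 in rhabdomyolysis (SD, n = 4 each). Tnfaip3, the A20 feedback inhibitor, had 5.29, 8.02, 11.4 and 31.9 CPM in controls, IRI, rhabdomyolysis and cisplatin, and Nfkb2, of the noncanonical arm, 13.2, 39.7, 45.0 and 84.6 CPM in that order. Relb, its partner subunit, had 3.81, 13.6, 16.4 and 21.8 CPM. These 4 genes, the first of the list, shared with Icam1 and Vcam1 a highest mean in cisplatin. Other genes of the list had their highest mean in rhabdomyolysis, so the 4 do not stand for the whole list. Its median in rhabdomyolysis is close to that in cisplatin, and 11 of the 22 were not called between these injuries.

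**Figure D4:**
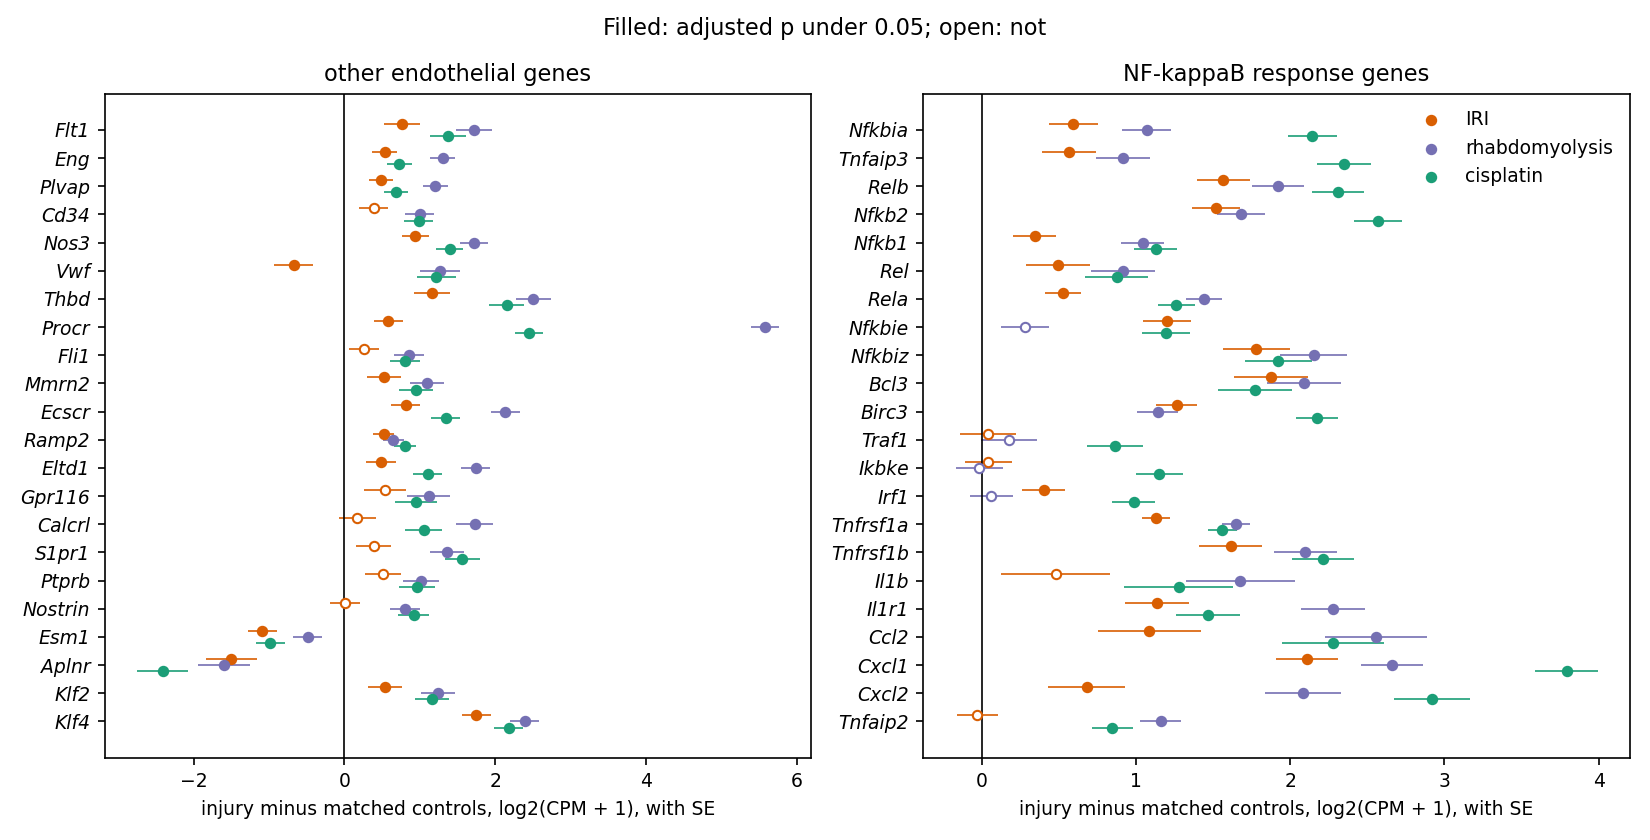
Difference from matched controls on the log2(CPM + 1) scale with its SE, for 22 other endothelial genes (left) and 22 NF-kappaB response genes (right). Filled points passed an adjusted p of 0.05. Most endothelial genes are highest in rhabdomyolysis and lowest in IRI, with Esm1 and Aplnr below 0 in all 3 injuries. Nfkbia, Tnfaip3 and Nfkb2 are highest in cisplatin, while other NF-kappaB response genes are highest in rhabdomyolysis.

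In bulk tissue, fewer cells of a type and less RNA per cell cannot be told apart, and other cells of the cortex moved with the injuries. A proximal tubule list (9 of 9 analysed) summed to 10225 to 14788 CPM in the controls, 3456 to 4271 in IRI, 1971 to 2532 in rhabdomyolysis and 1489 to 2835 in cisplatin. An injured tubule list (8 of 8) summed to 104 to 166 CPM in the controls and 3553 to 5299 CPM over the injuries. The summed endothelial list was 458 to 888 CPM in the controls, 833 to 965 in IRI, 1559 to 2111 in rhabdomyolysis and 1033 to 1502 in cisplatin. Its lowest control was control 2 (458 CPM), which was also the lowest control for Cdh5, Esam, Pecam1 and Vcam1. Mural and fibroblast markers (9 of 12) summed to 136 to 282 CPM in the controls, 581 to 661 in IRI, 664 to 1634 in rhabdomyolysis and 335 to 815 in cisplatin. Podocyte markers (3 of 6) summed to 177 to 484 CPM in the controls, with control 2 lowest, 488 to 620 in IRI, 661 to 952 in rhabdomyolysis and 523 to 645 in cisplatin.

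Leukocyte markers (12 of 19, of which 11 were tested) had 6 higher and 2 lower in IRI, 9 and 2 in rhabdomyolysis and 8 and 2 in cisplatin, beside all-gene shares of 40.6% and 40.1%, 48.8% and 46.5%, and 47.8% and 44.0%. The 2 lower genes were each time Csf1r and Cd74, of resident macrophages and antigen-presenting cells. The sum of all 12 leukocyte markers was 197 to 311 CPM in the controls, 153 to 221 in IRI, 191 to 395 in rhabdomyolysis and 270 to 377 in cisplatin. In the controls the largest parts of this sum were Cd74 and Csf1r, the 2 genes called lower. Their means were 148 and 51.7 CPM in the controls and 53.2 and 16.1 CPM in IRI. The lower IRI sum therefore does not describe the 6 genes called higher. Of 2 platelet markers analysed of 5 listed, Itga2b was lower in every injury and Pf4 was called higher in rhabdomyolysis and not in IRI or cisplatin, a call absent under quantile normalization, and they summed to at most 9.71 CPM in any library. The part of these cell types in the values of the 5 genes was not tested.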

How the data were processed

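RNA was prepared from kidney cortex of 20 mice, captured by poly-A and sequenced from stranded libraries, per the labels' protocols. The submitters' processing notes name FastQC, Bowtie2 2.1.0, RSEM 1.2.15, edgeR and the builds GRCm38 and mm10; normalization and gene selection were not given in the sources used here. The authors deposited 1 table of CPM values, and 0 of its columns lacked a sample. Within a library 100% of values were whole multiples of 1 step to within 0.001 reads (largest distance 4.9e-05), so whole reads were recovered.

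log2(CPM + 1) was fitted with limma 3.58.1 in R 4.3.3 (5 cells: controls of each identifier range and 3 injuries; empirical Bayes with trend). The test covered 5672 genes whose mean reached 1 CPM, all 5 members among them, and left out 353, p-values were adjusted over them by the Benjamini-Hochberg method, and the threshold was 0.05. Fold changes on this scale understate changes of low genes. On the recovered reads edgeR 4.0.16 called 4545 of them for IRI, 5397 for rhabdomyolysis and 5186 for cisplatin; DESeq2 1.42.0 was a further alternative. The code was tested on simulated data. The series text calls the mice of a group biological replicates. Replicate numbers are shared by controls 1 to 4 and IRI, and by rhabdomyolysis and cisplatin.

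The members, gene lists, tests and alternatives were chosen with earlier results of these data known. Named genes are the 5 members, the first 4 tested genes of each main list, genes making up a count of 5 or fewer, and the 3 genes most like each member. Of the genes this rule selects, 1 is not reported here. Depth limits the precision of low values. Sequences are from RefSeq, positions from GENCODE M21.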

Additional observations from a re-analysis of the deposited data

Results flagged for a closer look

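Vcam1 in IRI library 2 (22.1 CPM) stood apart from the other 3 IRI libraries (17.1 to 17.4 CPM). The gap to its nearest neighbour was 0.934 of the range of the group. This was 1 of 20 gene and group sets examined, and chance marks about 1 in 20.

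Effects differed between injuries by the test of the difference itself in 9 cases, all on the log2(CPM + 1) scale. Rhabdomyolysis against cisplatin differed for Pecam1 (0.67), Icam1 (-1.66) and Vcam1 (-1.32). The IRI effect differed from the rhabdomyolysis effect for Esam (-1.12), Pecam1 (-0.98) and Icam1 (0.56), and from the cisplatin effect for Esam (-1.11), Icam1 (-1.10) and Vcam1 (-1.34). The rhabdomyolysis and cisplatin effects share controls 5 to 8. Differences from cisplatin cannot be told apart from time (72 h against 24 h).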

How the results depend on the processing

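Over 33 alternative settings, 924 of 970 member values in the 6 comparisons between groups kept their direction and side of the threshold, 12 lost a call, 15 gained one and 19 changed sign; none of the values that changed sign had been called. All calls of Icam1 and Vcam1 against controls held in every setting. A 2-fold minimum left 3 members called in cisplatin and 1 in the IRI against rhabdomyolysis comparison, and moved the genes called to 1717 in IRI, 3672 in rhabdomyolysis, 2595 in cisplatin, 913 between rhabdomyolysis and cisplatin, and 1283 and 805 for the IRI effect against these (4578, 5404, 5208, 3068, 2949 and 1716 without it). With all 8 controls as 1 group the last was 2636.

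Signs changed for Esam in IRI (0.10 with 75th percentile scaling, 0.0268 with edgeR and TMM), for Vcam1 between the IRI and rhabdomyolysis effects (0.000989 with a pseudocount of 0.1) and for Pecam1 between the control sets (0.00771 with quantile normalization, 0.0340 with edgeR, 0.0604 with edgeR and TMM, 0.0576 with DESeq2). The cause was not tested.

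With single libraries left out, members called ranged from 2 to 4 in IRI, 4 to 5 in cisplatin, 3 to 4 for rhabdomyolysis against cisplatin and for IRI against rhabdomyolysis, and stayed at 5 in rhabdomyolysis and 3 for IRI against cisplatin. Log2 differences ranged from -0.18 to 0.0499 for Esam in IRI, -0.12 to 0.17 for Esam between rhabdomyolysis and cisplatin, -0.21 to 0.16 for Vcam1 between the IRI and rhabdomyolysis effects, and -0.60 to 0.0121 for Cdh5 between the IRI and cisplatin effects. Between the control sets they ranged from -0.58 to 0.0310 for Cdh5, -0.14 to 0.16 for Pecam1 and -0.30 to 0.00793 for Vcam1.

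Same-numbered libraries did not deviate together (r from -0.112 to 0.176 for controls 1 to 4 with IRI, -0.207 to 0.325 for rhabdomyolysis with cisplatin). With the replicate number as a block (replicate block), 3 members and 4530 genes were called in IRI and 3 members and 2933 genes between rhabdomyolysis and cisplatin, and no member's call changed.

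The share of higher calls moved with scaling in rhabdomyolysis against cisplatin, from 39.6% to 51.8% with quantile normalization and 50.7% with DESeq2, and in the IRI against cisplatin effects from 44.5% to 55.3% with quantile normalization. It also fell below 50% in the IRI against rhabdomyolysis effects (54.9% to 48.8% with DESeq2). With quantile normalization it did so in cisplatin (52.1% to 47.9%), rhabdomyolysis (51.2% to 49.6%) and IRI (50.3% to 47.7%), where 75th percentile scaling gave 56.1%. Among the scalings, quantile normalization moved the median of all genes in cisplatin from 0.30 to 0.03 and in rhabdomyolysis from 0.31 to 0.14 (0.52 with edgeR and TMM, 0.48 with 75th percentile scaling, 0.45 with DESeq2), and 75th percentile scaling moved it in IRI from 0.08 to 0.21. In IRI quantile normalization moved it the other way, to 0.0042, and in cisplatin edgeR and TMM gave 0.43. A minimum mean of 5 CPM, which tests fewer genes, gave -0.38 in rhabdomyolysis, -0.03 in cisplatin and -0.06 in IRI. List counts were also run under other scalings and without control 2, both chosen after seeing the data. Vcam1, with 36 to 78 reads in the controls, is limited most by depth.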

Other observations

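Some list genes outside the naming rule were picked after their values were seen. Procr, which encodes the endothelial protein C receptor, had 1.38 CPM ± 0.387 in the controls (SD, n = 8), 2.79 ± 0.548 in IRI, 11.3 ± 2.45 in cisplatin and 107 ± 21.4 in rhabdomyolysis (SD, n = 4 each), the widest separation of rhabdomyolysis from cisplatin among the 22 endothelial genes (log2 difference 3.13). Thbd, which encodes thrombomodulin of the same anticoagulant pathway, had means of 20.5, 47.4, 117 and 91.4 CPM in controls, IRI, rhabdomyolysis and cisplatin. Cd44, a hyaluronan receptor of leukocytes and injured epithelium, had 2.50 CPM ± 0.864 in the controls (SD, n = 8), 12.6 ± 1.14 in IRI, 66.5 ± 5.57 in cisplatin and 38.2 ± 11.1 in rhabdomyolysis (SD, n = 4 each).

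The endothelial selectins were low beside the 5 genes. Sele had 0.299 CPM ± 0.221 in the controls (SD, n = 8), 0.718 ± 0.594 in IRI, 2.26 ± 0.860 in cisplatin and 1.78 ± 0.425 in rhabdomyolysis (SD, n = 4 each). Selp, which was below the minimum mean and not tested, had means of 0.147, 0.374, 2.16 and 1.56 CPM in controls, IRI, rhabdomyolysis and cisplatin.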
